A study of Drosophila melanogaster with 4 samples.

Results

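Isolated autosomal Hsp90 sites are short stretches of chromosomes 2 and 3 where Hsp90 was found on chromatin with no other reproducible Hsp90 site nearby. They were taken from 2 lists of chromatin immunoprecipitation sequencing (ChIP-seq) peaks, 1 per biological replicate. Peaks of the lists that overlapped by at least 1 bp on the arms 2L, 2R, 3L and 3R were merged, and a merged region was called shared when it held a peak of each replicate. A site was isolated when its region was shorter than 3000 bp and at least 12000 bp separated it from the shared region on either side, whatever the length of that neighbour. The first and last region of each arm were left out. Of 7151 shared autosomal regions, 507 (7.09%) met the rule. All sequences together held 9015 shared regions. The other 6215 shared autosomal regions under 3000 bp are called other compact regions below.

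The series holds 2 replicates of an Hsp90 immunoprecipitation and 2 of input, the same kind of chromatin with no antibody step, all from the Drosophila melanogaster line DRSC-S2 grown at 25 °C. DRSC-S2 is a line of Schneider 2 cells, a culture first derived from fly embryos. The labels name no genotype, treatment or heat shock for any sample, and the antibody was a non-commercial one. Each list came from a single ChIP library called against its own input, resting on 13383895 unique ChIP tags for replicate 1 and 17401846 for replicate 2.

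Hsp90 is an abundant chaperone that helps many signalling and regulatory proteins keep their active shape, and in the fly it is encoded by the gene Hsp83. Besides its cytosolic role it associates with chromatin. By its title the study concerns Hsp90 at paused promoters, gene starts where RNA polymerase II halts shortly after initiation until it is released. In published work on fly cells, Hsp90 has been linked to NELF, the factor that holds the polymerase in the paused state. Gene starts and sequence of the genome build behind the peaks (dm3) were not used here, so sites are given by their dm3 position and no gene is assigned to them.

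Peak positions chose the sites, and every value of a peak comes from the same comparison of ChIP with input. All values below are therefore descriptions, and no difference between isolated and other sites was tested. The fold is the authors' ratio of ChIP tags to the local background expected from input. The score is the log10 of the peak caller's p-value multiplied by -10. Both are the authors' own values for the highest-scoring peak of a region in each list.

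The isolated sites were small and simple. Their median length was 718 bp (interquartile range 565 to 977.5 bp), and that of other compact regions was 977 bp (697 to 1415 bp). A length under 1000 bp was found for 387 of the 507 isolated sites (76.3%) and for 3217 of the other compact regions (51.8%). At 481 isolated sites (94.9%) each replicate had exactly 1 peak, while 14 sites held more than 1 peak in replicate 1 and 15 in replicate 2. Of the other compact regions, which were longer, 5477 (88.1%) had exactly 1 peak in each replicate. The summit, the point of highest tag pile-up, lay near the middle of the peak. Its median place was 48.6% of the peak length from the left edge in replicate 1 (interquartile range 37.7 to 58.5%) and 48.9% in replicate 2 (39.3 to 57.4%). In other compact regions the medians were 50.4% in both, with wider ranges of 34.7 to 66.5% and 36.3 to 64.0%.

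The median folds of the isolated sites were somewhat above those of other compact regions in both replicates. In replicate 1 the isolated sites had a median fold of 5.29, with an interquartile range of 4.20 to 6.72 and a full range of 2.20 to 17.84. In replicate 2 the median was 5.44, with an interquartile range of 4.42 to 6.93 and a full range of 2.47 to 13.73. Other compact regions had medians of 5.14 and 5.21. Folds of 8 or more were listed for 15.2% of the isolated sites and 9.85% of other compact regions in replicate 2, and for 12.6% and 10.4% in replicate 1. Over all shared autosomal regions the shares were 10% in replicate 2 and 10.8% in replicate 1.

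**Figure D1:**
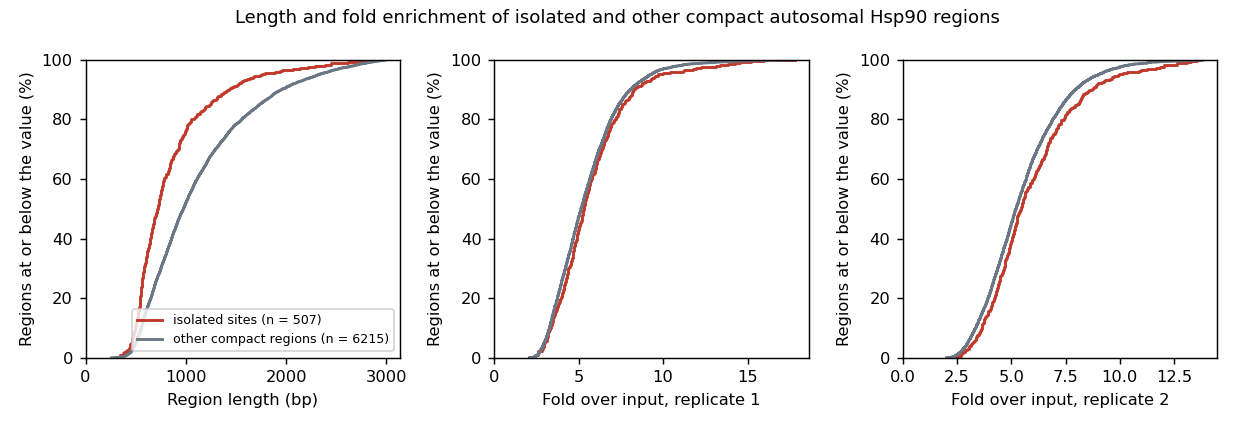
Cumulative share of regions (percent, vertical axes) at or below a given region length in bp or fold enrichment over input in replicates 1 and 2 (horizontal axes), for the 507 isolated sites and the 6215 other compact regions. The length curves are far apart, with medians of 718 and 977 bp, while the fold curves lie closer together, with that of the isolated sites mostly to the right and medians of 5.29 and 5.14 in replicate 1 and 5.44 and 5.21 in replicate 2.

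Scores and tag counts, which depend on peak length, were lower in replicate 1 and alike or lower in replicate 2. The median score of the isolated sites was 178 in replicate 1, where that of other compact regions was 237, and 301 in replicate 2, where it was 299.6. The isolated sites held a median of 186 ChIP tags in replicate 1 (range 49 to 1149) and 260 in replicate 2 (78 to 1556), against 246 and 318. The tag density was taken as tags per kb of peak and per 1000000 unique tags of the library. Its medians were 20.02 in isolated sites and 20.05 in other compact regions in replicate 1, and 22.7 against 21.9 in replicate 2. The density still differed by length class. Under 600 bp its medians in replicates 1 and 2 were 16.7 and 19.8 in isolated sites, and 16.8 and 19.2 in others. From 600 to under 900 bp they were 22.1 and 24.3, and 19.1 and 21.2. From 1500 bp up they were 23.6 and 26.2, and 22.9 and 24.8. The isolated sites together held 0.917% of the unique ChIP tags of replicate 1 (exact 95% binomial interval 0.912 to 0.922%) and 0.976% of those of replicate 2 (0.971 to 0.980%). These intervals cover counting error only.

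Among the isolated sites, fold showed no order by length. In the shortest regions, under 600 bp, 162 isolated sites had median folds of 5.29 and 5.45, and 928 other compact regions had 4.72 and 5.08. From 600 to under 900 bp the medians were 5.64 and 5.41 for 188 isolated sites, and 4.93 and 5.05 for 1791 others. From 900 to under 1500 bp they were 5.17 and 5.47 for 113 isolated sites, and 5.15 and 5.17 for 2148 others. From 1500 bp up the order turned, with 4.96 and 5.07 for 44 isolated sites and 5.74 and 5.56 for 1348 others. From the shortest to the longest class, the medians of other compact regions were ordered upwards in replicate 1, and those of the isolated sites in neither replicate. The rank correlation of length with fold over the 507 isolated sites was -0.05 in replicate 1 and -0.03 in replicate 2. Each such correlation runs across sites of the same library.

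The false discovery rate of the peak caller differed more between the lists than between kinds of site. A rate under 5% was given to 26 isolated sites (5.13%) in replicate 1, where 9.96% of all shared autosomal regions had one, and to 333 (65.7%) in replicate 2, where 67.9% had one. The 26 sites were under 5% in both lists, which 9.93% of the shared autosomal regions were. A fold of 8 or more was listed for 64 isolated sites in replicate 1 (12.6%, background 10.8%), for 77 in replicate 2 (15.2%, background 10%) and for 43 in both (8.48%, background 6.31%). Since the sites were chosen from the same comparison, these counts are given without a reading.

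The distance to the nearest shared region had a median of 19875 bp (interquartile range 14695 to 29213 bp). It was at least 20000 bp for 250 sites, at least 40000 bp for 71 and at least 100000 bp for 5. Folds did not follow this distance. Sites with a smaller gap of 12000 to under 20000 bp had median folds of 5.25 and 5.42 (257 sites), those from 20000 to under 40000 bp had 5.43 and 5.52 (179 sites), and the 71 sites beyond had 5.08 and 5.35. The rank correlation of the smaller gap with the fold over the 507 sites was 0.01 in both replicates. At the other end, compact regions less than 500 bp from a neighbour had medians of 5.05 and 5.17 (2755 regions). The median length was 1030 bp in that class, and 753, 679 and 709 bp in the classes of isolated sites.

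**Figure D2:**
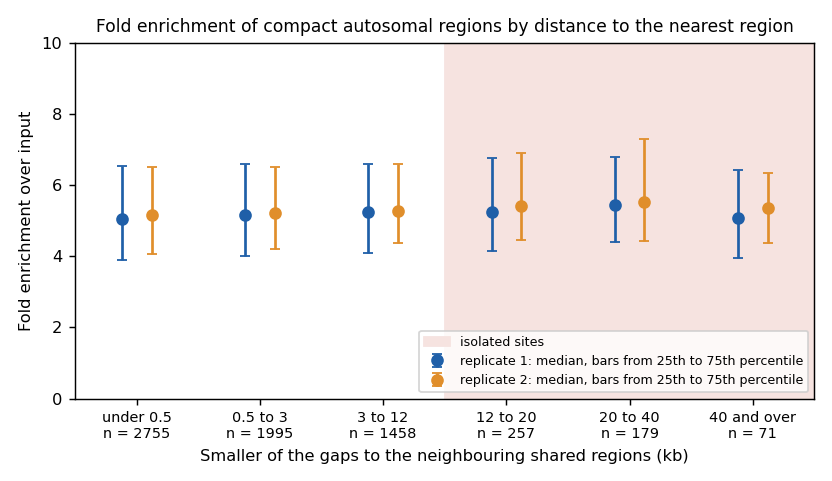
Fold enrichment over input (vertical axis) of compact autosomal regions by the smaller gap to a neighbouring shared region in kb (horizontal axis); points are medians, bars run from the 25th to the 75th percentile over regions, and the shaded classes are the isolated sites. Medians stay between 5.05 and 5.52 in all classes and both replicates, with overlapping bars.

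The 10 isolated sites with the highest folds were ranked by mean percentile in both lists. They lay on 3L (6 of its 130 isolated sites), 3R (3 of 161) and 2L (1 of 115). First was a 687 bp site on 3L from 12427368 to 12428054, whose folds were 15.96 and 13.57 in replicates 1 and 2. It held 340 and 466 tags, its summits lay 11 bp apart, and no other peak of either list was nearer than 16519 bp. The 996 bp site on 3R from 15394214 to 15395209 was enriched 17.84 and 12.71 times, with 850 and 928 tags. It was the only isolated site with a score of 3100 in both lists, and it had the highest tag density of the isolated sites in replicate 1 and the next to highest in replicate 2. Its false discovery rates of 8.33% and 1.20% were nonetheless not the lowest, since the lowest among isolated sites were 3.50% and 0.47%.

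The next 3 sites differed little between the replicates. On 3L, the site from 20688378 to 20689142 was enriched 14.58 and 13.10 times. On 3R, the site from 8070011 to 8070657 was enriched 14.25 and 13.28 times. On 3L, the site from 6393214 to 6393936 had folds of 13.85 and 13.10, with no other peak of either list within 47381 bp. The remaining 5 had folds of 13.11 to 14.54 in replicate 1 and 11.30 to 12.66 in replicate 2. They lay on 3L from 14124394 to 14125235, from 11040844 to 11041481 and from 5838429 to 5839174, on 2L from 2450576 to 2451474, and on 3R from 8437596 to 8438260. All 10 were shorter than 1000 bp, had a single peak in each list, and had summits 3 to 25 bp apart. In all 10 the fold was higher in replicate 1.

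The lowest folds did not always mean few tags. The 1642 bp site on 2R from 20615386 to 20617027 was enriched 2.29 and 2.48 times, yet it held 810 and 1003 tags. Its tag density was 45.4 in replicate 1 and 37.99 in replicate 2, ranks 11 and 45 of the 507 isolated sites. The site on 3R from 834008 to 834937, enriched 2.39 and 2.47 times, ranked 28 and 85 in tag density. The site on 2R from 1796356 to 1797360, enriched 2.20 and 2.68 times, ranked 14 and 82. These 3 sites thus ranked high in tag density, while their folds were among the 5 lowest. The input background at single sites was not among the values used, so its part was not tested. The other 2 of the 5 lowest lay on 2L, from 4227561 to 4228929 (folds 2.61 and 2.71) and from 7549401 to 7549983 (2.61 and 2.88). They ranked low in tag density as well, at 385 to 496.

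The site of highest tag density, as the mean of both lists, had a fold over the median of the isolated sites on each arm. On 2L it was the site from 5403347 to 5404277, with folds of 9.23 and 7.44 and tag densities of 53.7 and 58.2. On 2R it was the site from 8340351 to 8342088, with folds of 8.77 and 5.62. On 3L it was the site from 14699337 to 14700187, with folds of 12.60 and 9.07. On 3R it was the site with the fold of 17.84 named above.

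The 5 most remote sites were mostly weak. On 3L from 23688022 to 23689575, a 1554 bp site stood 615236 bp from the previous shared region and 546065 bp from the next. Its folds were 3.16 and 4.37, its score in replicate 1 was 54.0, and replicate 2 listed 2 further peaks of its own within 12 kb, the nearest 54 bp away. On 2R, the site from 1264582 to 1265355 had a smaller gap of 154561 bp, folds of 3.14 and 3.39, and 3 peaks of replicate 2 alone within 12 kb. On 2L, the site from 17260531 to 17261056 had gaps of 371045 and 116605 bp. Its folds were 2.86 and 3.16, and its score in replicate 2, 50.1, was the lowest of the 507 sites. The site on 2L from 18332309 to 18332866 had a smaller gap of 109676 bp and folds of 3.26 and 4.10. The fifth, on 2R from 14858312 to 14858920, differed from these 4, with folds of 6.33 and 5.11 and no peak of either list within 112444 bp.

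At isolated sites the summits of the replicates lay close together. The rule sets this in part, as it requires overlapping peaks of both lists in a region under 3000 bp. The distance between the summits had a median of 19 bp (7 to 44 bp from the 25th to the 75th percentile). At 439 sites (86.6%) they were within 100 bp. In other compact regions the median was 23 bp and the share 82.8%. Summits were over 500 bp apart at 16 isolated sites (3.16%) and at 4.31% of other compact regions. The farthest at an isolated site, 1430 bp, was on 3L from 5862611 to 5864500, where each list had 2 peaks. Over the 507 sites the folds of both lists had a Spearman correlation of 0.79 and a Pearson correlation of 0.81, the same to 2 decimals as over other compact regions. Taken as log2 of replicate 2 over replicate 1, the fold ratio was 0.06 at the median isolated site with an SD of 0.32, against 0.00 and 0.31. The folds were within 1.5 times of each other at 472 isolated sites (93.1%) and at 93.8% of other compact regions.

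**Figure D3:**
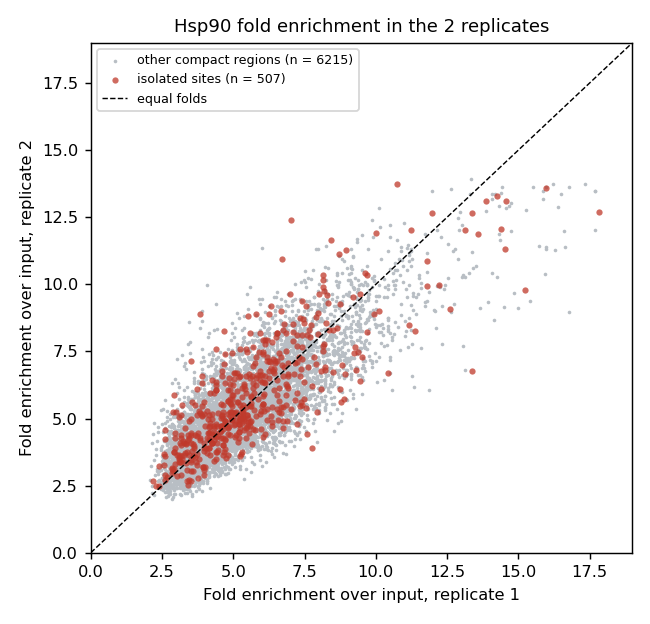
Fold enrichment over input in replicate 1 (horizontal axis) and replicate 2 (vertical axis), with 1 point per region, for the 507 isolated sites and the 6215 other compact regions; the dashed line marks equal folds. Isolated sites cover the same range as the others, from 2.20 to 17.84 in replicate 1, and the points with the highest folds in replicate 1 lie below the line.

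Of the 5 sites where the folds parted most, 4 were on 3L, which held 130 of the 507 isolated sites. On 3L from 18179056 to 18179665 the fold was 3.83 in replicate 1 and 8.91 in replicate 2, with 116 and 260 tags. The 3L site with the widest summit distance had 3.50 and 7.13, and its values come from different peaks. On 3L from 11995411 to 11996443 the folds were 2.93 and 5.88. The opposite order was seen on 3L from 16923472 to 16924118, with 7.77 and 3.91, and on 2R from 1614161 to 1614832, with 13.38 and 6.76. In both of these the tag counts, not adjusted for depth, were higher in replicate 2, whose library held more unique tags. They were 230 and 270 at the first site (tag densities 26.6 and 28.9) and 328 and 447 at the second (36.5 and 45.1). The densities are adjusted for depth but also depend on the peak length in each list. The exact 95% Poisson intervals of these counts were 201 to 262 and 239 to 304 at the first site, and 293 to 365 and 407 to 490 at the second. The intervals are not adjusted for depth, so they cannot be compared between the replicates.

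Isolation here means distance from shared regions, and 196 of the 507 sites had a peak of a single replicate within 12 kb. No other peak of either list lay that near to the remaining 311 sites (61.3%). Replicate 2 supplied most of the single-list neighbours. It had such peaks beside 161 sites, and replicate 1 beside 54, with 19 sites counted in both. The median folds of these neighbours were below those of the sites, at 3.29 for 71 peaks of replicate 1 and 4.01 for 197 peaks of replicate 2. Their highest folds were 5.13 and 9.16. The rule keeps peaks that overlap between the lists out of this set, so the strength of the neighbours is not independent of it. The neighbours were also concentrated next to the sites. Counting a peak once for each site it neighbours, 58 of 205 in replicate 2 began within 1 kb of the site, while each further kb held 8 to 19. In replicate 1 the nearest kb held 13 of 72. Replicate 2 had more tags and a narrower fragment shift in peak calling, and their part in this was not tested.

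**Figure D4:**
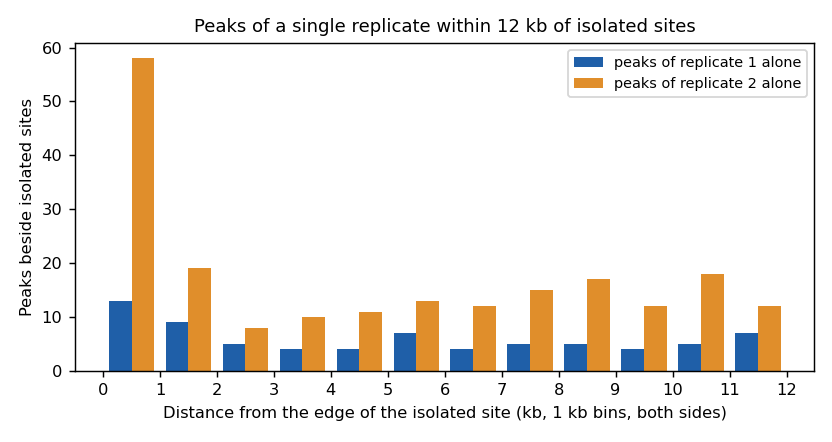
Number of peaks listed in a single replicate (vertical axis) by distance from the edge of an isolated site in kb (horizontal axis, bins of 1 kb, both sides summed). Replicate 2 has 58 such peaks in the nearest kb and 8 to 19 in each of the others; replicate 1 has 13 and then 4 to 9.

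The 311 sites with no neighbour of any kind had median folds of 5.43 and 5.53 and a median length of 680 bp. The 196 with a single-list neighbour had medians of 4.97, 5.22 and 779.5 bp. The most such neighbours were beside a 2070 bp site on 3L from 70562 to 72631, with 4 of replicate 1 and 2 of replicate 2, and its folds were 3.36 and 3.07. On 3R from 25582803 to 25585018, 5 peaks of replicate 1 and none of replicate 2 lay within 12 kb, and the folds were 4.06 and 3.92. These 2 sites were picked after their values were seen.

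Isolated sites were found on all 4 arms, with 115 on 2L, 101 on 2R, 130 on 3L and 161 on 3R. As a share of the shared regions of the arm these are 7.02%, 5.80%, 7.42% and 7.97%. Per Mb of the span covered by peaks they are 5.00, 4.78, 5.34 and 5.77. The arm with the most shared regions per Mb, 2R with 82.4, had the fewest isolated sites per Mb. Isolated sites on 2R also had the lowest median folds of the 4 arms, 4.72 and 5.13, where those on 3R had the highest, 5.48 and 5.71. Other compact regions on 2R had 5.21 and 5.22, so the arm was not the lowest among these.

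Each arm, as the span covered by its peaks, was divided into 5 equal parts from the centromere end. The density over the 4 arms was 5.34, 4.51, 6.17, 5.81 and 4.46 isolated sites per Mb. The arms did not share a course: the part next to the centromere was the lowest of 2R, with 3.08 per Mb, while on 3R it held 6.63.

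**Figure D5:**
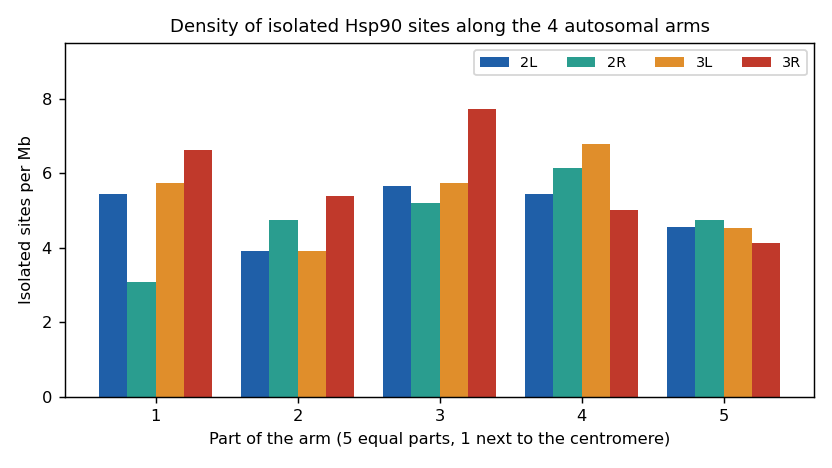
Isolated sites per Mb (vertical axis) in each of 5 equal parts of the span covered by peaks, counted from the centromere end (horizontal axis), for the arms 2L, 2R, 3L and 3R. Values run from 3.08 in the part of 2R next to the centromere to 7.71 in the middle part of 3R, with no common trend along the arms.

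The 2 Mb of each arm nearest the centromere held 37 isolated sites in all. These were 12.4% of the 299 shared regions there, against 6.86% over the rest of the arms. Shared regions were sparser there than the 74.2 per Mb over the arms, so this share is not a density. Per Mb, isolated sites were fewer there than the 5.26 over the arms. By arm the share was 10.3% on 2L, 7.89% on 2R, 22.6% on 3L and 12.5% on 3R. The arm 3R held 19 of the 37 sites. Distance was counted from the outermost listed peak at the centromere end of each arm, not from the centromere itself. The 37 sites were longer and weaker at the median than the other 470. Their median length was 930 bp against 707 bp. Their median folds were 4.31 and 4.37, with interquartile ranges of 3.21 to 5.47 and 3.65 to 5.71, against 5.36 and 5.51 for the rest. Of the 37, 24 (64.9%) had a peak of replicate 2 alone within 12 kb, against 29.1% of the rest, and 6 (16.2%) had one of replicate 1, against 10.2%. The part of these neighbours in the lower folds was not tested.

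Isolated sites often followed each other. For 237 of the 507, neither the previous nor the next shared region was an isolated site, and the other 270 (53.3%) stood in 106 rows of 2 to 6 successive isolated sites. Most rows were pairs (69), and 3 rows held 6 sites. Neighbours in a row share a gap, so a row is a sparse stretch rather than a set of separate observations.

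The most compact row of 6 ran on 3R from 12672839 to 12760822, with an isolated site every 12459 to 21581 bp. Its folds, in order along the arm, were 5.59, 7.23, 8.06, 3.50, 6.39 and 3.37 in replicate 1 and 8.19, 7.11, 6.09, 4.99, 6.78 and 3.74 in replicate 2. The fourth and the last were the weakest in both replicates, and none of the 6 was over 946 bp. The row on 2L from 7239921 to 7388587 had folds of 2.85 to 8.24 in replicate 1 and 3.12 to 8.56 in replicate 2. The same site, from 7367508 to 7367951, was the lowest of that row in both lists, and the same site, from 7281407 to 7281872, the highest.

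The row near the centromere end of 2L, from 21794512 to 22180279, was uneven. Its first site, from 21794512 to 21796018, had folds of 10.73 and 13.73, the second of which was the highest fold of any isolated site in replicate 2. The other 5 had folds of 2.85 to 3.50 in replicate 1 and 2.97 to 4.06 in replicate 2, none of which overlapped the first. One of them, from 21827624 to 21829411, held 996 and 1550 tags, more than the 513 and 1008 tags of the first, at folds of 3.3 and 3.73.

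The values at the limits of the rule were as follows. The 3 sites just inside the gap limit had smaller gaps of 12014, 12017 and 12018 bp, with folds of 4.82, 3.44 and 5.53 in replicate 1 and 4.70, 2.71 and 4.76 in replicate 2. The 3 regions just outside had gaps of 11936, 11912 and 11830 bp, with folds of 5.86, 5.74 and 5.29, and 4.90, 5.64 and 5.82. The longest isolated sites were 2905, 2779 and 2751 bp long, with folds of 10.12, 2.94 and 6.59, and 9.01, 4.27 and 7.43. Regions that met both gaps but were 3000 bp or longer numbered 21, and the shortest 3 of these, of 3469, 3535 and 3802 bp, had folds of 7.90, 4.47 and 6, and 6.90, 4.54 and 5.29. A further 2103 compact regions had the required gap on 1 side and not on the other.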

How the data were processed

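Hsp90 was immunoprecipitated from formaldehyde-fixed DRSC-S2 cells in 2 replicates, and fragments of about 250 bp were amplified for 18 PCR cycles, per the labels' protocols. Reads were aligned with Bowtie to dm3, also named BDGP5, per the submitters' processing notes; for versions and reads with several matches, nothing is given in the sources used here. Per the file headers, MACS called the peaks of each replicate over the matching input at a p-value cutoff of 1e-05, with a model fold of 6 and fragment shift d of 111 in replicate 1, and 4 and 78 in replicate 2. Input enters only through the deposited values.

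The deposited tags are whole-number counts of ChIP tags per peak, without normalization. The deposited fold is a ratio to the local input background. The deposited score is the log10 of the p-value multiplied by -10, and the deposited false discovery rate is in percent. Positions are 1-based.

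Merged regions, gaps (bases between regions) and tag densities were computed with pandas 2.3.3 and numpy 2.4.6 under Python 3.11.15, intervals with scipy 1.17.1, and plots with matplotlib 3.10.9. A region took the fold, score and rate of its highest-scoring peak per list. The rule was checked on simulated peaks. With 1 condition and sites chosen by the readout, no test between groups was made. Intervals are exact and cover counting error only, as molecular identifiers are not mentioned.

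The sites and the rules were chosen with earlier results of these data known. Named sites were the 10 highest and 5 lowest by mean fold percentile, the 5 most remote, the 5 with the largest fold ratio, the first of each arm by tag density, and those at the limits of the rule. Rows of sites, single-list neighbours, the widest summit distance and centromere-near sites were described after their values were seen. Alternatives changed the overlap, score, gap and length limits, the replicates and the peaks that end a gap.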

Additional observations from a re-analysis of the deposited data

How the results depend on the processing

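The number of isolated sites, 507, stayed within 1.5 times under 50% overlap, a score minimum, both other length limits and either replicate alone, but was 812 with a gap limit of 8000 bp, 250 with 20000 bp and 311 when a gap ended at any peak of either list. Dropping the peaks that scored under the median of their list moved the median folds to 6.65 and 6.51 and the median length to 979 bp. The share of sites with no other peak nearby went from 61.3% to 22.5%. Neighbours were counted in the full lists, so a dropped peak still counted as a neighbour. That share was 51.9% with 50% overlap, 54% with the 20000 bp limit, where the median length was 680.5 bp, and 100% by construction with gaps to any peak, where the median length was 680 bp and the median fold of replicate 1 was 5.43. Without a length limit the median fold of replicate 2 was 5.30. Using 1 list alone gave 491 to 501 sites, median lengths of 528 to 652 bp, and median folds of 5.12 in replicate 1 and 5.04 in replicate 2. A list left out gives no fold of its own, and these sites need not hold a peak of both replicates. The shares were 67.7 to 90.4%, but by construction only peaks of the left-out list could count as neighbours. A value counted as moved beyond 0.11 for folds and 30.4 bp for lengths, the SD between the replicates, or outside 56.9 to 65.6% for the share. Apart from these effects of how neighbours were counted, the cause of the shifts was not tested. No paired analysis was possible because the inputs enter only through the peak calls and the results come from no test. Counting error is largest at the sites with the fewest tags: the lowest count, 49 in replicate 1, has an exact 95% Poisson interval of 36.3 to 64.8.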
